A study of Mus musculus with 10 samples.

Results

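The genes *Hspb1*, *Hspb2*, *Hspb3*, *Hspb6*, *Hspb7*, *Hspb8* and *Cryab* of the small heat shock protein family, and *Bag3*, the co-chaperone gene that works with them, were followed in failing mouse hearts with and without the calcium channel regulator RAD. They are 8 of the 57185 genes with counts and 8 of the 13453 genes that passed the count filter, so none of them was lost to it. They were selected by name after their lower counts in cRADΔ/Δ-MLPKO against MLPKO had been seen. That genotype difference is therefore a description of each gene: no p is given for any of the 8, the calls of a fit across all genes are stated once beside the share of all genes called, and none of it is evidence that the family as a whole differs.

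Small heat shock proteins share a conserved alpha-crystallin domain and hold unfolding proteins in a soluble state without using ATP. In striated muscle they bind desmin, filamin, titin and actin at the Z-disc and the I-band, where mechanical load unfolds proteins. BAG3 links HSPB8 to the ATP-driven chaperone HSC70 and to the ubiquitin ligase CHIP, and damaged filamin is passed from this complex to the autophagosome, a route called chaperone-assisted selective autophagy. Mutations in BAG3, CRYAB and desmin cause cardiomyopathies in humans.

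RNA of the apical ventricle was sequenced in 5 MLPKO and 5 cRADΔ/Δ-MLPKO mice, with 1 library per mouse. All 10 mice lacked muscle LIM protein (the product of *Csrp3*), which leads to dilated cardiomyopathy, all carried floxed alleles of *Rrad*, the gene for RAD, and all received a single dose of tamoxifen of 100 mg per kg at 10 weeks of age. Hearts were taken 1 month later, and the labels give the age as 16 weeks; the study describes the mice as male. The cRADΔ/Δ-MLPKO mice (MLPKO-cRADKO in the labels) carried in addition MYH6-MerCreMer, a recombinase driven by the *Myh6* promoter of cardiomyocytes, and the MLPKO mice did not, so the recombinase itself and the loss of *Rrad* cannot be told apart in this design. No group with intact muscle LIM protein was analysed here, so all values are relative to a diseased heart.

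Depth did not separate the genotypes, with 33457406 to 49965101 counts per MLPKO library and 33759811 to 46280882 per cRADΔ/Δ-MLPKO library (two-sided exact permutation test of the means, p = 0.587). *Rrad* had 5774 to 11644 normalised counts in MLPKO and 5562 to 8361 in cRADΔ/Δ-MLPKO, which overlapped, and *Csrp3* was counted in all 10 mice (28553 to 134796), so counts over whole genes give no check of the targeted exons. A normalised count is the raw count scaled to a common library size. The summed level of 8 ventricular cardiomyocyte markers was 2376511 to 2765687 normalised counts in MLPKO and 1794459 to 2345178 in cRADΔ/Δ-MLPKO, lower without overlap. At an adjusted p under 0.05, edgeR called 1 of these 8 lower, *Tnnt2*, and DESeq2, the tool of the study, called 3. The 7 endothelial markers summed to 29412 to 34211 and 34443 to 39993, higher without overlap, with 0 called by edgeR and 2 called higher by DESeq2. The 6 atrial markers summed to 1472 to 1767 and 1783 to 2786, also higher without overlap. Of the 4 tested, edgeR called 0 and DESeq2 called 1 higher, *Tbx5*. *Tbx5* and *Kcna5* made up most of this sum, and each overlapped between the genotypes. *Myl7* was below the lowest MLPKO mouse in 4 of the 5 cRADΔ/Δ-MLPKO mice and highest of all in cRADΔ/Δ-MLPKO mouse 1, and *Myl4* overlapped. The 8 macrophage markers summed to 7541 to 11264 and 9242 to 20249, which overlapped, but all 8 had positive log2 fold changes with a median of 0.53, the largest median of the marker lists in size, with 0 called by edgeR and 4 called higher by DESeq2. The sums also overlapped for the 8 fibroblast markers (56252 to 82460 and 45900 to 84452), the 7 smooth muscle markers (8119 to 12512 and 10608 to 17094, with *Acta2* called higher by both tools), the 5 erythroid markers (11923 to 115674 and 16913 to 81763) and the 5 adipocyte markers (11104 to 13423 and 13081 to 19542, mostly *Fabp4*). Their part in the results below was not tested. cRADΔ/Δ-MLPKO mouse 3 stood apart for the adipocyte genes *Cfd* (2520 normalised counts, at most 23.7 in the other 9 mice), *Plin1* (373, at most 5.2) and *Adipoq* (244, at most 5.5), had the highest macrophage sum and the lowest cardiomyocyte sum, and was the lowest of all 10 mice for *Hspb2*, *Hspb3*, *Hspb6* and *Hspb7*. Without that mouse the log2 fold changes of these 4 genes, given in full below, were −0.19, 0.045, −0.85 and −0.79. The 9 skeletal muscle markers stayed between 47.8 and 123 normalised counts in sum, with *Myog* and *Myh4* at 0 in every mouse. In whole tissue, fewer cardiomyocytes and less RNA per cardiomyocyte cannot be told apart. Each gene is therefore also given below relative to the cardiomyocyte marker sum, which was itself 0.28 lower on the log2 scale (log2 difference −0.28). That sum was mostly *Myh6* (1365432 to 1662756 in MLPKO and 1050361 to 1421006 in cRADΔ/Δ-MLPKO). The single markers ranged from 67.6% (*Tnnt2*) to 109% (*Tnni3*) of the MLPKO mean, and *Actn2* is also a client gene below. Values relative to the sum are thus no correction for cardiomyocyte content alone.

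The promoters are shown first because several of these genes are textbook targets of heat shock factors, which bind alternating GAA and TTC units. RefSeq promoter windows of 300 bases (250 before and 50 after a start site, table build GRCm38.p6) were given for 6 of the 8 genes, in 7 windows with 2 for *Hspb6*, and each window matched GRCm39 exactly once. *Hspb2* and *Cryab* had no entry. *Hspb1* and *Hspb3* are shown as the most and the least different small heat shock protein genes between the genotypes, and *Hspb7* as the most abundant of them. Each line holds the 250 bases before the start site on the strand of the gene, and capitals mark a heat shock element of 2 units, written GAANNTTC or TTCNNGAA. The last 13 bases of the *Hspb1* line lie in the first exon as GENCODE annotates it.
Hspb1 (GRCm39 chr5:135916523-135916772, + strand): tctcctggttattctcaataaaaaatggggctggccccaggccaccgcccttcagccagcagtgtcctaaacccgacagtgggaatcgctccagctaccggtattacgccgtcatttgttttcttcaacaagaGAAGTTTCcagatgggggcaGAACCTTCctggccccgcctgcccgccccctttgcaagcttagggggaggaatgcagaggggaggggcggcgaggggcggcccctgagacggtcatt
Hspb3 (GRCm39 chr13:113800213-113800462, − strand): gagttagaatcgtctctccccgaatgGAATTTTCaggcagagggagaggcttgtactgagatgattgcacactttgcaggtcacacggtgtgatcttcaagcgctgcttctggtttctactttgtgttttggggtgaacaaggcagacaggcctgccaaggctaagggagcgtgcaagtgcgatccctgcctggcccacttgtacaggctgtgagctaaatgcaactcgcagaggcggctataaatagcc
Hspb7 (GRCm39 chr4:141147840-141148089, + strand): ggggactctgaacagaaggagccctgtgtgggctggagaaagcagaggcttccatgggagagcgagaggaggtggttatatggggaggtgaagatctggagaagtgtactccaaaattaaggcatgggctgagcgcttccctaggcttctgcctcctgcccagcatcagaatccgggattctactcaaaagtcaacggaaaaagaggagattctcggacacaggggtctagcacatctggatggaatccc

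The 2-unit element, searched on both strands, was found in 5 of the 7 windows, and 15.056% of all 32851 windows of the same length hold it. *Hspb1* had 2 copies, at bases −117 to −110 and −97 to −90 from the start site, and *Hspb3* had 1 at −224 to −217. *Hspb7* and the upstream window of *Hspb6* had none. The other 3 copies lay in bases that GENCODE annotates as untranslated exon, and only the element with up to 10 bases on each side is shown, to compare their letters.
Hspb6, −120 to −113, inside the first exon of its coding transcripts: agtaattattGAAGTTTCtaaataagga
Hspb8, +3 to +10: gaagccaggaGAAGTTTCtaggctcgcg
Bag3, +43 to +50, at the end of the window: gatgggaccaGAAGTTTC
Hspb1, −117 to −110: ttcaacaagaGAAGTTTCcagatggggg

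These 4 windows held the same 8 letters, GAAGTTTC, which, with the opposite strand included, stand in 1.212% of all windows; this comparison was made after the matches had been seen, and the letters form a subset of the 2-unit element. The longer element of 3 alternating units was in 0 of the 7 windows and in 0.603% of all windows. The CArG box, the motif of serum response factor, was also in 0 of the 7 windows, and in 1.629% of all windows. A match is a description of letters, and no binding was measured.

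Compared per length, the genes spanned a wide range in MLPKO. Levels are given as normalised CPM per kilobase of exon (RPKM), over the union of the annotated exons. *Hspb7*, a small heat shock protein largely restricted to heart and skeletal muscle, stood highest at 1620 ± 475 RPKM (SD, n = 5), rank 16 of the 13453 genes. *Hspb1* followed with 824 ± 945, then *Cryab* with 517 ± 181, *Hspb6* with 495 ± 83.8, *Hspb8* with 345 ± 27.3 and *Bag3* with 140 ± 25.7. *Hspb2* at 26.9 ± 5.48 and *Hspb3* at 8.59 ± 1.41 were far lower, at ranks 820 and 2559. The neighbours *Hspb1*, *Cryab* and *Hspb6* lay within each other's spread, and the order of *Cryab* also depends on the length used, since with the longest transcript it had 963 ± 336 RPKM and passed *Hspb1* at 825 ± 947. In cRADΔ/Δ-MLPKO the order was *Hspb7* (896 ± 140), *Cryab* (351 ± 40.6), *Hspb6* (265 ± 29.8), *Hspb1* (260 ± 33.4), *Hspb8* (227 ± 15.4), *Bag3* (106 ± 8.82), *Hspb2* (22.6 ± 2.95) and *Hspb3* (8.23 ± 2.03), and there *Hspb6*, *Hspb1* and *Hspb8* were neighbours within about their spread. Together the 8 genes took 0.845% to 1.71% of all counts in MLPKO and 0.65% to 0.81% in cRADΔ/Δ-MLPKO, and *Hspb7* alone took 0.284% to 0.788% over the 10 mice.

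**Figure D1:**
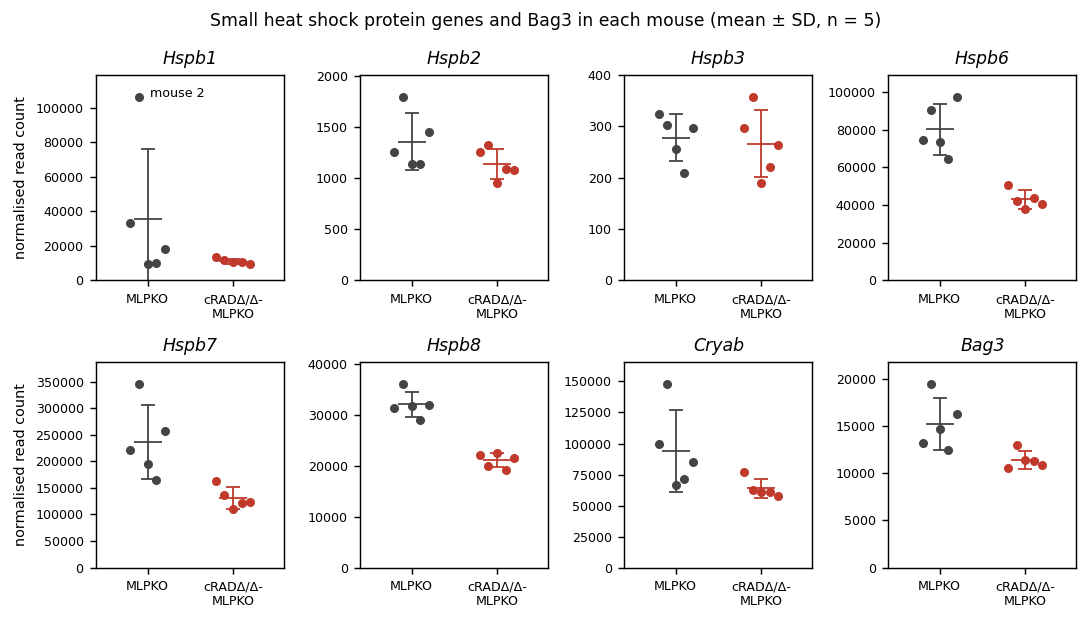
Normalised read counts (y axes, linear from 0, a scale of its own for each gene) of the 8 genes in 5 MLPKO mice (grey) and 5 cRADΔ/Δ-MLPKO mice (red), with points for mice in the order of their numbers and bars for the mean ± SD; the lower bar of *Hspb1* in MLPKO ends at the axis. *Hspb6*, *Hspb7* and *Hspb8* do not overlap between the genotypes, *Hspb2* and *Hspb3* overlap widely, and MLPKO mouse 2 is the highest point of *Hspb1* at 106507.

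All 8 genes had a negative log2 fold change, cRADΔ/Δ-MLPKO over MLPKO, in the quasi-likelihood fit of edgeR across all genes, as did 47.9% of the 13453 genes. Their median was −0.58, against 0.01 over all genes. *Hspb6*, *Hspb7* and *Hspb8*, 3 of the 8, passed an adjusted p under 0.05 over all genes, where 2.74% of all genes passed in either direction and 1.8% passed as lower in cRADΔ/Δ-MLPKO. The same 3 genes were lower without overlap between the mice, as were 3.98% of all genes. With 1 mouse left out, *Hspb6* and *Hspb8* passed in every fit. *Hspb7* did not pass without MLPKO mouse 1 or 5, or without cRADΔ/Δ-MLPKO mouse 2, 3, 4 or 5. DESeq2 passed 5 of the 8 (*Cryab* and *Bag3* in addition) and 9.65% of all genes. Because this contrast chose the genes, nothing is read from these counts.

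The chaperones without overlap between the genotypes were *Hspb6*, *Hspb7* and *Hspb8*. *Hspb6* (GRCm39 chromosome 7, 30251603 to 30256218) encodes a small heat shock protein that is phosphorylated by protein kinase A and binds actin. It had 74854, 90763, 73594, 64428 and 97686 normalised counts in MLPKO mice 1 to 5 and 50640, 41964, 37702, 43974 and 40750 in cRADΔ/Δ-MLPKO mice 1 to 5. Every cRADΔ/Δ-MLPKO mouse was below the lowest MLPKO mouse, and the mean was 53.6% of that of MLPKO, with 80265 ± 13586 against 43006 ± 4835 (SD, n = 5 each) and a log2 fold change of −0.90 (SE 0.12). Relative to the cardiomyocyte marker sum the log2 difference was −0.61, and *Hspb6* was the single gene of the 8 whose groups still did not overlap on that scale. Of its exon bases, 11.8% are shared with *Lin37* and 5% with *Proser3* on the opposite strand, and since no strand setting of the counting is stated, reads there cannot be told apart. The same limit holds for exon bases of *Cryab* (19.8% shared with *2310030G06Rik* and 17.2% with *Hspb2*), *Bag3* (18.6%), *Hspb8* (9.9%) and *Hspb7* (2.6%).

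*Hspb7* (chromosome 4, 141148090 to 141152625) binds filamin C and is needed for the actin cytoskeleton of the heart. It had 221098, 345519, 195024, 165623 and 256996 normalised counts in MLPKO mice 1 to 5 and 163361, 137054, 110397, 120857 and 123501 in cRADΔ/Δ-MLPKO mice 1 to 5. The groups were separated by a narrow gap, between 165623 in MLPKO mouse 4 and 163361 in cRADΔ/Δ-MLPKO mouse 1. The means were 236852 ± 69436 and 131034 ± 20417 (SD, n = 5 each), a log2 fold change of −0.85 (SE 0.18). It was −0.68 without MLPKO mouse 2, the highest mouse, and −0.54 relative to the cardiomyocyte markers, where the groups overlapped.

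*Hspb8* (chromosome 5, 116546409 to 116561084) encodes the partner of BAG3. It had 31446, 36174, 31740, 29157 and 32098 normalised counts in MLPKO mice 1 to 5 and 22193, 20017, 22645, 19312 and 21621 in cRADΔ/Δ-MLPKO mice 1 to 5. The gap between the groups, from 22645 to 29157, was wide for the spread within them, and *Hspb8* was the least variable of the 8 genes in both. The means were 32123 ± 2540 and 21158 ± 1433 (SD, n = 5 each), a log2 fold change of −0.60 (SE 0.07), with −0.56 without MLPKO mouse 2. Relative to the cardiomyocyte markers it was −0.32, and the groups overlapped there.

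*Bag3* itself (chromosome 7, 128125283 to 128148705), whose product bridges HSPB8 and HSC70, had 13190, 19445, 14696, 12433 and 16207 normalised counts in MLPKO mice 1 to 5 and 10591, 13024, 11443, 11275 and 10817 in cRADΔ/Δ-MLPKO mice 1 to 5. The groups overlapped only through cRADΔ/Δ-MLPKO mouse 2, and 4 of its 5 mice were below the lowest MLPKO mouse. The means were 15194 ± 2783 and 11430 ± 955 (SD, n = 5 each), 75.2% of MLPKO, with a log2 fold change of −0.41 (SE 0.11). It was −0.31 without MLPKO mouse 2 and −0.11 relative to the cardiomyocyte markers.

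*Hspb1* and *Cryab*, the stress-responsive small heat shock proteins that bind actin filaments, desmin and titin, varied most among the MLPKO mice. *Hspb1* (chromosome 5, 135916760 to 135918417) had 33174, 106507, 9720, 10127 and 18189 normalised counts in MLPKO mice 1 to 5 and 13426, 11580, 10850, 10698 and 9519 in cRADΔ/Δ-MLPKO mice 1 to 5. MLPKO mice 3 and 4 lay within the range of cRADΔ/Δ-MLPKO, mice 1, 2 and 5 lay above it, and mouse 2 was 11 times as high as mouse 3. The coefficient of variation of *Hspb1* was 115% in MLPKO, larger than in 99.8% of all genes tested (median 12.9%), and 12.8% in cRADΔ/Δ-MLPKO (median 10.4%). Its log2 fold change was −1.66 (SE 0.58), from means of 35544 ± 40790 and 11215 ± 1440 (SD, n = 5 each). This value rested in large part on MLPKO mouse 2, since it was −0.67 without that mouse. With all 10 mice it was −1.05 in limma-voom. The difference of mean log2 values, another measure over all 10 mice, was −1.04, and −0.76 relative to the cardiomyocyte markers. A processed copy of *Hspb1*, *Hsp25-ps1*, is listed with 85 to 896 raw counts, so reads may be split between them.

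*Cryab* (chromosome 9, 50651859 to 50668567) had 99694, 148007, 66577, 71075 and 84773 normalised counts in MLPKO mice 1 to 5 and 76655, 62668, 61293, 61217 and 57571 in cRADΔ/Δ-MLPKO mice 1 to 5. In both genotypes the mice stood in the same order as for *Hspb1*. The groups overlapped through cRADΔ/Δ-MLPKO mouse 1 alone, with 4 of 5 mice below the lowest MLPKO mouse. The means were 94025 ± 32832 and 63881 ± 7387 (SD, n = 5 each), a log2 fold change of −0.56 (SE 0.19), with −0.33 without MLPKO mouse 2 and −0.22 relative to the cardiomyocyte markers.

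*Hspb2* and *Hspb3*, muscle members of the family whose products form a complex with each other, differed least. *Hspb2* (chromosome 9, 50662378 to 50663858) lies head to head with *Cryab*, their annotated start sites 329 bases apart, and had 1254, 1796, 1140, 1142 and 1446 normalised counts in MLPKO mice 1 to 5 and 1254, 1323, 954, 1084 and 1075 in cRADΔ/Δ-MLPKO mice 1 to 5. The groups overlapped, with 3 of the 5 cRADΔ/Δ-MLPKO mice below the lowest MLPKO mouse, and the log2 fold change was −0.25 (SE 0.13), or −0.13 without MLPKO mouse 2 and 0.04 relative to the cardiomyocyte markers. Of its exon bases, 62.1% are shared with *Cryab* exons on the opposite strand, so with the strand setting not stated part of its count cannot be told apart from the far more abundant *Cryab*.

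*Hspb3* (chromosome 13, 113799432 to 113800212) had 324, 303, 256, 208 and 295 normalised counts in MLPKO mice 1 to 5 and 297, 357, 190, 221 and 264 in cRADΔ/Δ-MLPKO mice 1 to 5. The highest and the lowest mouse of all 10 were both cRADΔ/Δ-MLPKO, and the groups overlapped throughout. The log2 fold change was −0.06 (SE 0.18), with a positive sign without MLPKO mouse 1 (0.0015) and without cRADΔ/Δ-MLPKO mouse 3 (0.045) or 4 (0.0057), and 0.20 relative to the cardiomyocyte markers.

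**Figure D2:**
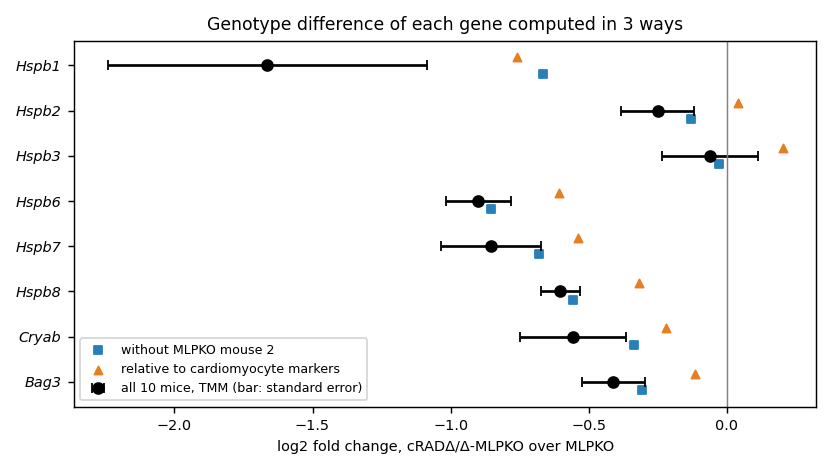
Log2 fold change, cRADΔ/Δ-MLPKO over MLPKO (x axis), of each of the 8 genes (y axis): edgeR on all 10 mice with its standard error (black circles), the same fit without MLPKO mouse 2 (blue squares), and the difference of mean log2 values relative to the summed cardiomyocyte markers (orange triangles). *Hspb1* moves from −1.66 to −0.67 without mouse 2, *Hspb6* and *Hspb8* move little, and *Hspb2* and *Hspb3* are at or above 0 relative to the markers.

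The other relatives of these genes were low or did not pass the test. *Cryaa*, the lens alpha-crystallin, had no count in any of the 10 mice, where a count of 0 allows up to 3, and *Hspb9* and *Odf1*, known from testis, reached at most 4 and 6 raw counts. *Ift25*, an intraflagellar transport gene also named *Hspb11*, had 63 to 179 raw counts. Of the 9 relatives, 6 were tested and 0 were called by edgeR or by DESeq2, the largest difference being that of *Bag2*, a co-chaperone that inhibits CHIP, with a log2 fold change of −0.35 (SE 0.14; edgeR adjusted p = 0.178). The log2 fold changes of *Bag1*, *Bag4*, *Bag5* and *Bag6* lay between −0.10 and 0.07.

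Genes that act with the small heat shock proteins were grouped by role into 4 lists of 51 genes, of which 50 were tested. In all, 4 of the 50 fell in cRADΔ/Δ-MLPKO and 0 rose at an edgeR adjusted p under 0.05, against the 2.74% of all genes that passed, and 5 of the 50 were lower without overlap, against 3.98% of all genes. The cytoskeletal and sarcomeric clients had the lowest median log2 fold change of the lists (−0.37 over 12 genes, with 9 negative).

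Among the clients, *Des* and *Ldb3* fell. *Des*, the gene for desmin, the intermediate filament that CRYAB chaperones, had 134139, 211229, 126233, 113552 and 145058 normalised counts in MLPKO mice 1 to 5 and 98458, 80852, 83935, 83207 and 78685 in cRADΔ/Δ-MLPKO mice 1 to 5. The groups did not overlap, and the log2 fold change was −0.78 (SE 0.15; edgeR adjusted p = 0.0247), or −0.47 relative to the cardiomyocyte markers, still without overlap. *Ldb3*, which encodes the Z-disc protein Cypher or ZASP, had 57650 to 83369 in MLPKO and 38312 to 54473 in cRADΔ/Δ-MLPKO, again without overlap, with a log2 fold change of −0.55 (SE 0.12; edgeR adjusted p = 0.0334), or −0.27 relative to the cardiomyocyte markers, where the groups overlapped. *Flnc*, the filamin that BAG3 and HSPB7 bind, had a larger log2 fold change of −1.09 (SE 0.37) that did not pass (edgeR adjusted p = 0.114), since it ranged from 34567 to 172487 in MLPKO and overlapped. *Myot*, for the Z-disc protein myotilin, had −0.76 (SE 0.25; edgeR adjusted p = 0.112). *Pdlim3*, for an alpha-actinin binding protein, had −0.45 (SE 0.40; edgeR adjusted p = 0.56) and *Actn2*, for alpha-actinin of the Z-disc, had −0.43 (SE 0.11; edgeR adjusted p = 0.0544) without overlap between the mice.

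In the list of chaperone-assisted selective autophagy, *Sqstm1*, the gene for the autophagy receptor that recognises ubiquitin, was the 1 gene of 14 that passed. It had 19652, 18420, 19102, 17976 and 21425 normalised counts in MLPKO mice 1 to 5 and 16157, 16356, 16280, 16412 and 14957 in cRADΔ/Δ-MLPKO mice 1 to 5. Its log2 fold change was −0.27 (SE 0.06; edgeR adjusted p = 0.0427), no larger than the −0.28 of the cardiomyocyte marker sum, and relative to that sum it was 0.0154 with the groups overlapping. *Synpo2*, whose product joins BAG3 to the autophagosome membrane, had a log2 fold change of −0.77 (SE 0.34; edgeR adjusted p = 0.214), with 38349 normalised counts in MLPKO mouse 2 and 8719 to 18200 in the other 9 mice. *Gabarapl1*, *Wipi1* and *Dnajb4* had log2 fold changes of −0.23, −0.22 and −0.21 and did not pass. *Hspa8*, the gene for HSC70, had −0.07 (SE 0.23; edgeR adjusted p = 0.893) and *Stub1*, the gene for CHIP, −0.04 (SE 0.06; edgeR adjusted p = 0.789). The median of the list was −0.13 over 14 genes, with 11 negative.

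The heat shock factors and the inducible chaperones did not pass, with 0 of 16 called by edgeR and 1, *Fkbp4*, by DESeq2 (log2 fold change 0.26, SE 0.08, DESeq2 adjusted p = 0.0375). *Hsf1*, for the main stress-activated factor, had 1158 to 1468 normalised counts in MLPKO and 1291 to 1455 in cRADΔ/Δ-MLPKO. *Hspa1a*, the classical heat-inducible member of the HSP70 family, had 80.3, 770, 124, 78.3 and 568 in MLPKO mice 1 to 5 and 151, 612, 150, 238 and 145 in cRADΔ/Δ-MLPKO mice 1 to 5. Its high mice were MLPKO 2 and 5 and cRADΔ/Δ-MLPKO 2, and MLPKO mouse 1, with the second highest *Hspb1* of its group, had low *Hspa1a*. By contrast, *Hsp90aa1* had 14035, 18980, 6732, 6227 and 10929 normalised counts in MLPKO mice 1 to 5. Its highest mice of that group, 2 and 1, were those of *Hspb1*. How far the genes of this list followed *Hspb1* across mice was not tested. *Hsp90aa1*, for the inducible HSP90, had the largest difference of the list, a log2 fold change of −0.44 (SE 0.26; edgeR adjusted p = 0.354), followed by *Hspa1a* with −0.31 (SE 0.67), *Dnajb1* with 0.29 (SE 0.16) and *Hspa1b* with −0.26 (SE 0.60). The median of the list was −0.05, with 10 of 16 negative.

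The last list joined kinases that phosphorylate small heat shock proteins with p38 kinases, and 8 of its 9 genes were tested. *Mapk12*, on the list as the gene for the gamma form of p38 MAP kinase found in muscle, fell. It had 1078 to 1500 normalised counts in MLPKO and 778 to 1082 in cRADΔ/Δ-MLPKO. Its log2 fold change was −0.51 (SE 0.11, edgeR adjusted p = 0.0389), or −0.23 relative to the cardiomyocyte markers. The groups overlapped by 1 mouse of each genotype. *Prkaca*, the catalytic subunit of protein kinase A, which phosphorylates HSPB6, had −0.23 (SE 0.06; edgeR adjusted p = 0.0691), lower without overlap. *Akt1* had 0.28 (SE 0.11; edgeR adjusted p = 0.175), and *Mapkapk2*, which phosphorylates HSPB1, had −0.20 (SE 0.07; edgeR adjusted p = 0.144). *Mapkapk3* had 0.15 (SE 0.16; edgeR adjusted p = 0.648), and the median of the list was −0.07, with 4 of 8 negative. Each of the 4 genes that passed over the lists lost its call in 6 to 8 of the 10 fits that left out 1 mouse, among them those without MLPKO mouse 1 or 5 and without cRADΔ/Δ-MLPKO mouse 2, 3, 4 or 5.

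**Figure D3:**
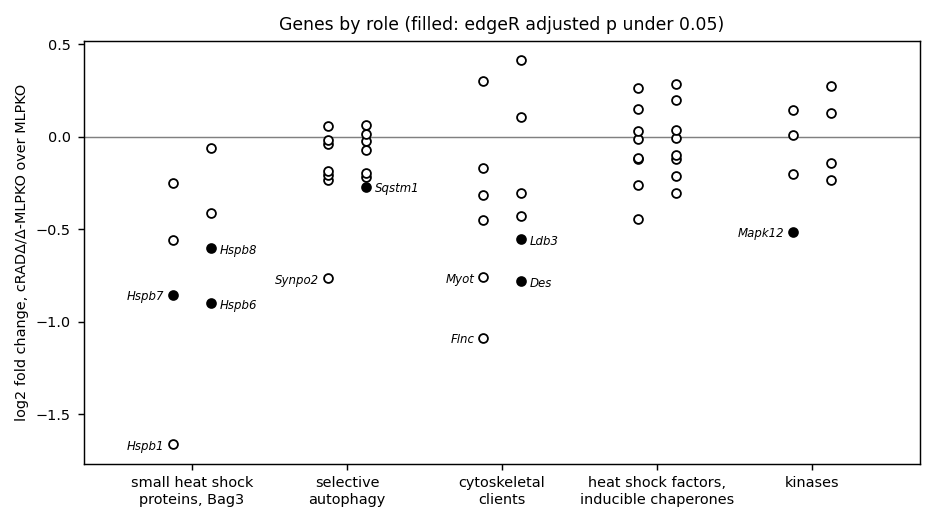
Log2 fold change, cRADΔ/Δ-MLPKO over MLPKO (y axis), of the 8 genes and of the tested genes of the 4 role lists (x axis), filled where the edgeR adjusted p was under 0.05. *Hspb6*, *Hspb7*, *Hspb8*, *Sqstm1*, *Des*, *Ldb3* and *Mapk12* are filled and all lie below 0, and no gene of the heat shock factor list is filled.

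How the 8 genes moved together was read across mice after the mean of each genotype had been removed, so the genotype difference itself does not enter. The measure is still not independent of how the genes were chosen, since MLPKO mouse 2 added to that difference. The median log2 fold change of the 8 was −0.58 with that mouse and −0.445 without it. All 28 pairs had a positive Pearson r of log2 CPM over the 10 mice, with a median of 0.65, and each gene on its own had a median r between −0.01 and 0.03 with all genes tested. After adjustment over the 28 pairs, 2 passed by r and 1 by rho in exact permutation tests within genotypes. *Hspb1* and *Cryab* had r = 0.975 (exact permutation p = 6.94e-05, the smallest the arrangements allow, adjusted p = 0.00194) and rho = 1 (exact permutation p = 0.000139, adjusted p = 0.00389), with r = 0.92 without MLPKO mouse 2 and 0.89 without MLPKO mice 2 and 3, the mice farthest from the median of *Hspb1*. Among all genes tested, *Cryab* ranked 2 by its r with *Hspb1*, behind *Hsp25-ps1*, its processed copy. *Hspb2* and *Hspb7* had r = 0.93 (exact permutation p = 0.000556, adjusted p = 0.00778) and rho = 0.85 (exact permutation p = 0.00931, adjusted p = 0.118), with r = 0.94 without the 2 mice farthest from the median of *Hspb2*, MLPKO mouse 2 and cRADΔ/Δ-MLPKO mouse 2. Such an r is not particular to this pair. Of the other genes tested, 0.87% had r over 0.9 with *Hspb2* and 1.47% with *Hspb7*.

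Without MLPKO mouse 2 the median r was 0.475, and the pairs of *Bag3* that changed most were 3: r of *Hspb1* with *Bag3* went from 0.65 to 0.02, that of *Hspb8* with *Bag3* from 0.51 to 0.045, and that of *Cryab* with *Bag3* from 0.58 to −0.10. Every pair of *Hspb8* fell as well, such as that with *Hspb1* from 0.65 to 0.23 and that with *Hspb2* from 0.43 to −0.08. The r of *Hspb2* with *Hspb3* went from 0.71 to 0.85 and that of *Hspb3* with *Hspb7* from 0.66 to 0.77 without that mouse. *Hspb6* with *Hspb7* had r = 0.86 over 10 mice (exact permutation p = 0.00639, adjusted p = 0.0578) and rho = 0.80 (exact permutation p = 0.0192, adjusted p = 0.118), with 0.92 without MLPKO mouse 2. *Hspb8* and *Bag3*, whose products form 1 complex, thus had no correlation past the adjustment (exact permutation p = 0.167, adjusted p = 0.223; rho = 0.40, exact permutation p = 0.311, adjusted p = 0.436), and r was −0.29 without MLPKO mice 2 and 4.

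**Figure D4:**
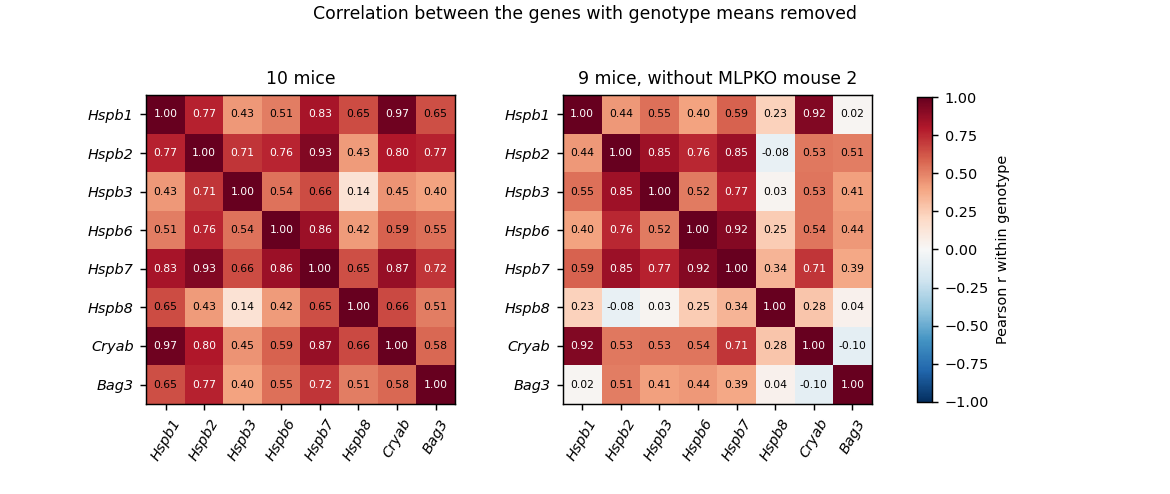
Pearson r between each pair of the 8 genes (rows and columns), in log2 CPM with genotype means removed, over 10 mice on the left and over 9 mice without MLPKO mouse 2 on the right; colour runs from −1 (blue) to 1 (red). *Hspb1* with *Cryab* and *Hspb6* with *Hspb7* are above 0.9 on the right, and the columns of *Hspb8* and *Bag3* fade.

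The genes whose pattern across mice was most like the mean of the 8, again with genotype means removed, were led by *Flnc*, with r = 0.993 over the 10 mice and 0.982 without MLPKO mouse 2, rank 1 of all genes either way. *E2f3*, a cell cycle transcription factor gene, followed with r = 0.991 and 0.975. *Tom1l2*, *Lrrfip1*, *Lpp*, *Gask1b*, *Samd1*, *Otulin*, *Cct8* and *Slc25a23* had r from 0.974 to 0.981 over 10 mice and from 0.926 to 0.953 without mouse 2. Only *Flnc* and *E2f3* of these 10 stayed in the top 10 without that mouse. None of the 10 was called between the genotypes, and all 10 had negative log2 fold changes, from −1.09 for *Flnc* to −0.15 for *Samd1*. These values describe 10 libraries under 1 normalisation, and MLPKO mouse 2 was the highest of them for each of the 10 genes.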

How the data were processed

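The deposited table held raw counts per gene, which the authors made by aligning reads to GRCm39 with STAR and counting with featureCounts; settings for strand and shared reads are not given in the sources used here. Of 60676 rows, 3491 without values were left out. GENCODE M39 named 56629 of the 57185 others. The filter of the study's methods was used: a count above 10 in 6 or more of the 10 mice, without Gm and Rik genes. It left 13453 genes, more than the study ranked.

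Counts were scaled by TMM and tested by the quasi-likelihood test of edgeR 4.0.16 (R 4.3.3) with Benjamini-Hochberg adjustment, called at an adjusted p under 0.05. DESeq2 1.42.0, the tool of the study, and limma-voom (limma 3.58.1) were alternatives. Correlations used log2 CPM with a prior count of 2. Permutation tests ran in scipy 1.17.1.

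The 8 genes, the role lists and the markers were chosen with earlier results of these data known. Named genes are the 8, *Rrad*, *Csrp3*, their relatives, the genes of each list that passed plus up to 4 others with the largest change, and the 10 most alike. *Hsf1*, *Hspa8*, *Stub1*, *Fkbp4*, *Hsp25-ps1*, *Tnnt2*, *Tnni3*, *Myh6*, *Acta2*, *Fabp4*, *Cfd*, *Plin1*, *Adipoq*, *Myog*, *Myh4*, *Myl4*, *Myl7*, *Tbx5* and *Kcna5* were added after their values were seen. Mouse numbers belong to different animals in the 2 genotypes. Replicate libraries differed by more than sampling noise.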

Additional observations from a re-analysis of the deposited data

Results flagged for a closer look

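In groups of 5 mice, the highest or lowest value stood apart from the others (a gap of more than 0.71 of the range) in 4 of the 24 groups examined, the 8 genes and the 4 role genes that passed in each genotype, where chance gives about 1 in 20. *Hspb1* had 106507 normalised counts in MLPKO mouse 2, against 9720 to 33174 in the other 4 MLPKO mice. *Cryab* had 76655 in cRADΔ/Δ-MLPKO mouse 1, against 57571 to 62668 in the other 4 mice of its group. *Des* had 98458 in the same mouse, against 78685 to 83935. *Sqstm1* had 14957 in cRADΔ/Δ-MLPKO mouse 5, against 16157 to 16412. cRADΔ/Δ-MLPKO mouse 1 was also the highest for the atrial genes *Myl4* (810 normalised counts, against 58.4 to 219 in the other 9 mice) and *Myl7* (188, against 13.5 to 77.3); whether this bears on its *Cryab* and *Des* was not tested.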

How the results depend on the processing

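The median log2 fold change of the 8 genes stayed between −0.64 (without MLPKO mouse 4) and −0.445 (without MLPKO mouse 2), and all but *Hspb3* kept a negative sign. The settings were RLE and upper quartile size factors, other count filters, Gm and Rik genes kept, robust dispersion, limma-voom, DESeq2, a fit with the replicate block and the leaving out of each mouse. Same-numbered mice are different animals, their deviations had correlations of −0.04 to 0.15, and 2 of the 10 mice correlated best with their own number. The fit with the replicate block called 281 genes against 369 and 3 of the 8 genes; of the role genes it called 3, without *Mapk12* and *Sqstm1*. DESeq2 called 9 of the 50 role genes (6 lower, 3 higher), 5 of the 8 genes and 1298 genes in all, and the cause of the gap was not tested. Leaving out each mouse gave 47 to 826 genes called, 2 to 4 of the 8 genes and 0 to 8 role genes. Chosen after the data had been seen, the scaling to cardiomyocyte markers gave *Hspb2* 0.04, *Hspb6* −0.61, *Hspb8* −0.32 and *Bag3* −0.11, turned *Sqstm1* to 0.0154 and took *Des* to −0.47, *Ldb3* to −0.27 and *Mapk12* to −0.23, and leaving out MLPKO mouse 2 took the median r between the genes to 0.475. Only 2 of the 10 most alike genes were among the 10 with genotype means kept, and 2 without MLPKO replicate 2. The 2-unit heat shock element was in 5 windows where the 3-unit one was in 0. With the longest transcript as length, the level in MLPKO was 624 RPKM for *Hspb6* and 963 for *Cryab*.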
